A study of Mus musculus with 2 samples.

Results

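Weak enrichment peaks of a control library that had no counterpart in a Dnmt3L hairpin library are described here. They were the peaks of the shGFP list with a score below 100 that shared not a single base with any peak of the shDnmt3L list. Of 55292 shGFP peaks, 13522 met this rule, and they are called absent weak peaks below. They were thus chosen by the score and the overlap, and their number is a description. They made up 47.0% of the 28776 shGFP peaks below that score, while absent peaks of any score made up 25.5% of the whole list, and nothing is read from either share. The 15254 shGFP peaks of the same score range that did overlap a shDnmt3L peak, called shared weak peaks, serve for comparison throughout.

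Both libraries came from E14 cells, a mouse embryonic stem cell line. One was transfected with a hairpin against GFP (shGFP, 1 library), a sequence that serves as a control, and the other with a hairpin against Dnmt3L (shDnmt3L, 1 library). Neither had a replicate, so the text gives no p-values and describes differences between these libraries only. The labels call the assay MeDIP and the series design names 5-methylcytosine, whereas the labels' protocols describe GLIB precipitation with a kit for 5-hydroxymethylcytosine, so the peaks are called enrichment peaks without naming the mark. The level of Dnmt3L was not analysed here.

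Dnmt3L is a member of the DNA methyltransferase 3 family that has no catalytic activity of its own and binds the de novo enzymes Dnmt3a and Dnmt3b. It is abundant in embryonic stem cells and germ cells. 5-methylcytosine is the product of the DNA methyltransferases, and Tet enzymes, which are active in embryonic stem cells, oxidise it to 5-hydroxymethylcytosine. An enrichment peak is a stretch where captured fragments pile up beyond a threshold, and a peak near that threshold can drop out of a list with little difference in signal.

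Coordinates are on mm9, the build that the submitters' processing notes name, with the first base counted as 1. No genome or gene annotation of that build was used here, so no gene, promoter or sequence was assigned to a peak. Intervals are 95% intervals, of Wilson for a share and of Newcombe for a difference of shares. They hold counting error alone, as if peaks were independent of each other, although neighbours are not. Read depth is unknown, and the number of weak peaks that can be called moves with it.

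The absent weak peaks crowded at the lower end of the score range. The score is the authors' peak value, lowest at 50.01 in this list, and it was part of the rule. The median was 59.98 in absent weak peaks (quartiles 54.3 and 69.3) and 76.1 in shared weak peaks (64.0 and 87.5). Scores below 60 were held by 6774 absent weak peaks, or 50.1% of them. Between scores of 50 and 60, 72.0% of the weak peaks were absent, and between 90 and 100, 12.9% were. With the shGFP list shortened to the length of the shDnmt3L list by dropping its lowest scores, 6559 absent weak peaks were left. The comparisons of width, density, distance, succession and chromosome were therefore repeated with score classes 10 units wide.

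The threshold of 100 cut through a continuous range. The 5 absent weak peaks just inside it scored 99.98, 99.96, 99.91, 99.85 and 99.82. They lay on chromosomes 2, 4, 6, 7 and 3 and were 2404, 1182, 3086, 2081 and 1468 bp wide. The first, on chromosome 2 from 160453709 to 160456112, lay 0.788 kb from a shDnmt3L peak, and the others 1.90, 22.6, 34.1 and 5.27 kb. The 5 absent peaks just outside scored 100.01, 100.02, 100.03, 100.04 and 100.04, on chromosomes 19, 1, 5, 9 and 17. Their nearest shDnmt3L peaks were 22.1, 233.6, 42.7, 14.2 and 16.7 kb away. The 585 absent peaks at 100 or more had a median width of 1825 bp and a median of 8 other shGFP peaks within 100 kb, against 1603 bp and 7 for the absent weak peaks.

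Absent weak peaks were narrow. Their median width was 1603 bp (quartiles 1394 and 1949 bp), against 1909 bp (1605 and 2150 bp) for shared weak peaks, and together they covered 22.6 Mb. Of the absent weak peaks, 63.3% were narrower than the median weak peak of 1779 bp, against 38.1% of the shared ones, a difference of 25.2 percentage points (24.1 to 26.3). Width was not used by the rule, but a wide peak offers more bases on which an overlap can fall, and the part of this in the difference was not tested.

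The difference in width was present at every score. In the class from 50 to 60 the medians were 1549 bp for absent and 1755 bp for shared peaks, and in the class from 90 to 100 they were 1784 and 2018 bp. With the shared peaks weighted to the scores of the absent ones, the difference of 25.2 percentage points became 17.7. Below 1250 bp and at scores of 50 to 60, 84.3% of 1035 weak peaks were absent (81.9 to 86.3%). At 2000 bp or more and scores of 90 to 100, 10.4% of 1743 were (9.09 to 11.97%). The lowest share of any class was 7.09% of 663 (5.37 to 9.30%), at the same scores and widths from 1750 to below 2000 bp. Over all weak scores, too, the share did not go down with width without limit. It was 31.0% (30.0 to 32.0%) from 2000 to below 2500 bp, 37.9% (33.7 to 42.3%) from 2500 to below 3000 bp and 36.5% (32.3 to 40.8%) from 3000 to below 4000 bp.

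**Figure D1:**
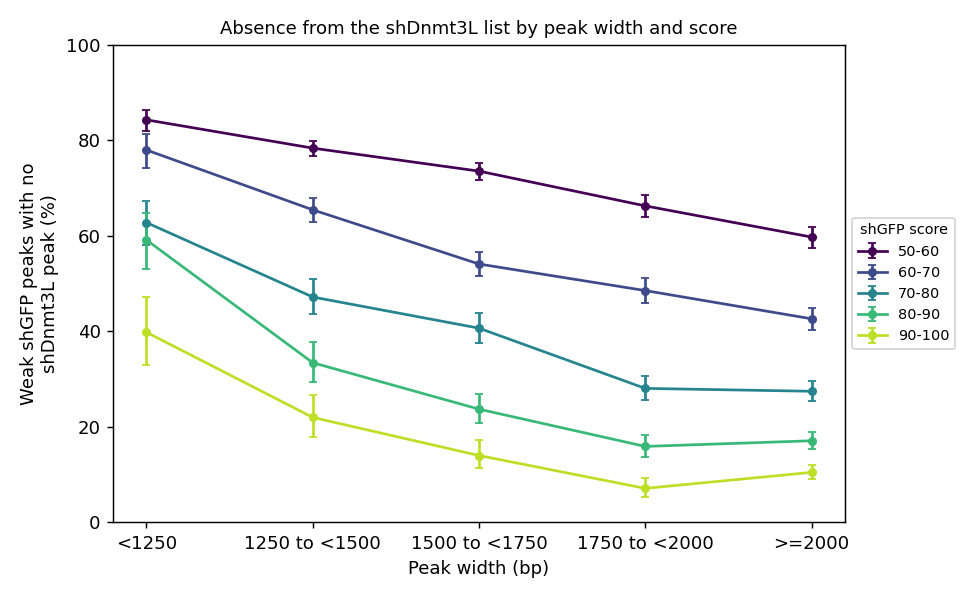
Share of weak shGFP peaks with no shDnmt3L peak (vertical axis, %) by peak width (horizontal axis, bp), with a line for each score class and bars for Wilson 95% intervals. Within each score class the share was highest below 1250 bp, from 84.3% at scores of 50 to 60 to 39.8% at scores of 90 to 100.

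Few of the absent weak peaks were wide. Widths of 3000 bp or more were found in 184 of them and in 319 shared weak peaks, and neither set held a peak of 10000 bp. The widest was 4488 bp, on chromosome 7 from 30248578 to 30253065. It scored 94.54, with its nearest shDnmt3L peak 61.2 kb away. Next in width came peaks of 4299 bp (chromosome 11, 102706259 to 102710557), 4224 bp (chromosome 8, 108752142 to 108756365), 4058 bp (chromosome 13, 51166050 to 51170107) and 4012 bp (chromosome 4, 138139559 to 138143570). These 4 scored 90.73, 97.58, 85.21 and 79.59, and a shDnmt3L peak lay 1276, 1721, 6713 and 867 bp from them, in the same order.

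Absent weak peaks had fewer peaks around them. Local density was the number of other shGFP peaks of any score with a midpoint within 100 kb on either side, a measure taken from the control list alone. Absent weak peaks had a median of 7 such neighbours (quartiles 4 and 12) and shared weak peaks 9 (5 and 14). Of the absent weak peaks, 50.5% had fewer than 8 neighbours, the median of all weak peaks, against 41.3% of the shared ones. The difference was 9.22 percentage points (8.07 to 10.4).

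The share of absent peaks went down step by step with density. It was 59.7% (56.9 to 62.3%) among 1264 weak peaks with no neighbour, 50.1% (48.5 to 51.8%) with 4 or 5 and 34.7% (32.3 to 37.1%) among 1552 with more than 20. Counted separately, strong and weak neighbours both showed this order. With no neighbour at a score of 100 or more 55.7% were absent, and with more than 8 such neighbours 38.8%. With no weak neighbour 58.3% were absent, and with more than 8 weak neighbours 41.05%. Crossed with each other, the counts did not show it throughout. With no strong neighbour the share went from 59.7% with no weak neighbour to 48.0% with 5 to 8. With more than 8 strong neighbours it was 33.3% with 2 weak neighbours, 38.7% with 3 or 4 and 38.5% with more than 8. Over 1 Mb on either side the share was 59.2% with up to 10 neighbours and 40.1% with more than 120.

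The ends of this range kept their order in each score class up to 90. At scores of 50 to 60, 83.3% (79.6 to 86.4%) of the weak peaks with no neighbour were absent and 58.0% (53.5 to 62.3%) of those with more than 20. At scores of 80 to 90 these shares were 30.1% (23.3 to 38.0%) and 14.4% (10.7 to 19.1%). At scores of 90 to 100 they were 11.9% (7.49 to 18.5%) and 9.78% (6.55 to 14.4%), with intervals that overlap. In this class the share was highest with 1 neighbour, 20.9% (15.2 to 28.0%), so the order did not hold at its lower end. Weighted to the scores of the absent peaks, the difference in the share with fewer than 8 neighbours was 9.999 percentage points, and weighted to their widths it was 6.02. The shDnmt3L list was thinner around absent weak peaks too, with a median of 6 shDnmt3L peaks within 100 kb against 7 around shared weak peaks, their own partners left out. How far these neighbours bear on the overlap was not tested.

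**Figure D2:**
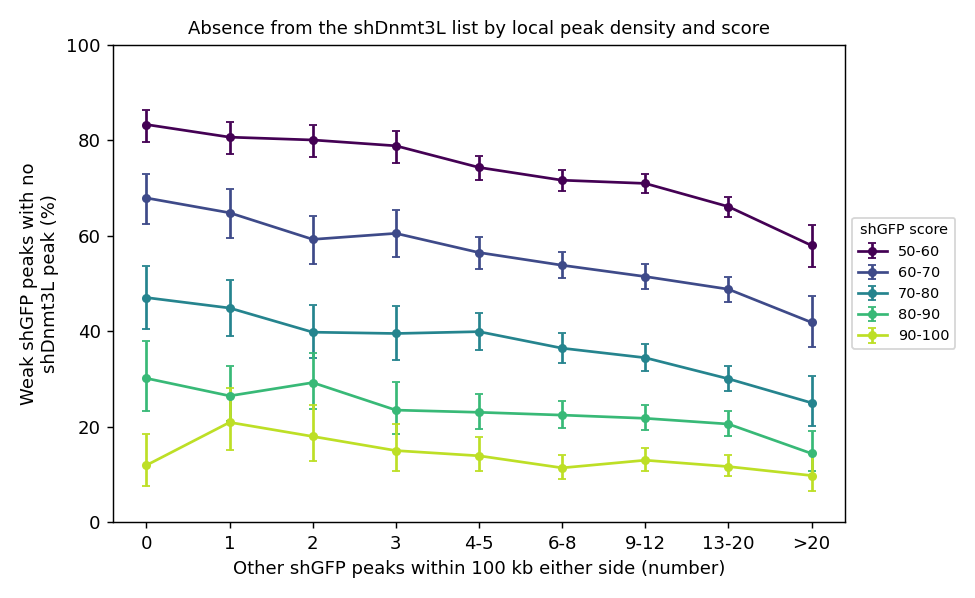
Share of weak shGFP peaks with no shDnmt3L peak (vertical axis, %) by the number of other shGFP peaks within 100 kb on either side (horizontal axis), with a line for each score class and bars for Wilson 95% intervals. At scores of 50 to 60 the share goes from 83.3% with no neighbour to 58.0% with more than 20, and at scores of 90 to 100 the intervals at both ends overlap.

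Single distances gave the same picture. The nearest other shGFP peak was a median of 8137 bp away from an absent weak peak (quartiles 2849 and 22306 bp) and 5716 bp from a shared one (1727 and 15378 bp), edge to edge. No other shGFP peak lay within 100 kb of 738 absent weak peaks, or 5.46% (5.09 to 5.85%), and of 500 shared weak peaks, or 3.28% (3.01 to 3.57%). Among weak peaks more than 100 kb from the next shGFP peak 59.6% were absent, and among those within 500 bp 28.6%.

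At the shortest distances, shDnmt3L peaks that overlapped several shGFP peaks, called joined peaks, entered the comparison. Of 1802 shared weak peaks within 500 bp of another shGFP peak, 61.2% (58.9 to 63.4%) overlapped a shDnmt3L peak that also overlapped another shGFP peak. Beyond 5 kb, 5 of 8131 did. With such shared peaks left out, 50.8% (48.2 to 53.4%) of the weak peaks within 500 bp of another were absent, 45.7% (44.2 to 47.2%) of those more than 500 and up to 2000 bp away, and 54.3% (53.0 to 55.6%) of those from 20 to 100 kb. This filter can remove shared peaks only, so it raises the absent share by construction, and the part of joined peaks in the low share at close spacing was not tested. The share of peaks beyond the median distance differed between absent and shared weak peaks by 9.31 percentage points (8.15 to 10.5), and by 6.002 at scores of 75 to 100 alone. Without the shared peaks under joined ones, almost all of them close to another peak, it was 5.39.

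Most absent weak peaks were far from any shDnmt3L peak on the scale of a peak width. Their distance was above 0 by the rule, with a median of 10.3 kb (quartiles 3.56 and 29.9 kb). A shDnmt3L peak lay within 500 bp of 591 of them, or 4.37% (4.04 to 4.73%), and within 2 kb of 2198, or 16.3%. No shDnmt3L peak was found within 100 kb of 1078, or 7.97% (7.53 to 8.44%), and within 500 kb of 138. A miss of the overlap by 500 bp or less thus concerned few members. Counting those peaks as shared still moved several differences between absent and shared weak peaks. That in density went from 9.22 to 11.4 percentage points and that in distance to the nearest shGFP peak from 9.31 to 13.3. The difference in how often the next weak peak was absent, described below, went from 4.47 to 5.92.

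**Figure D3:**
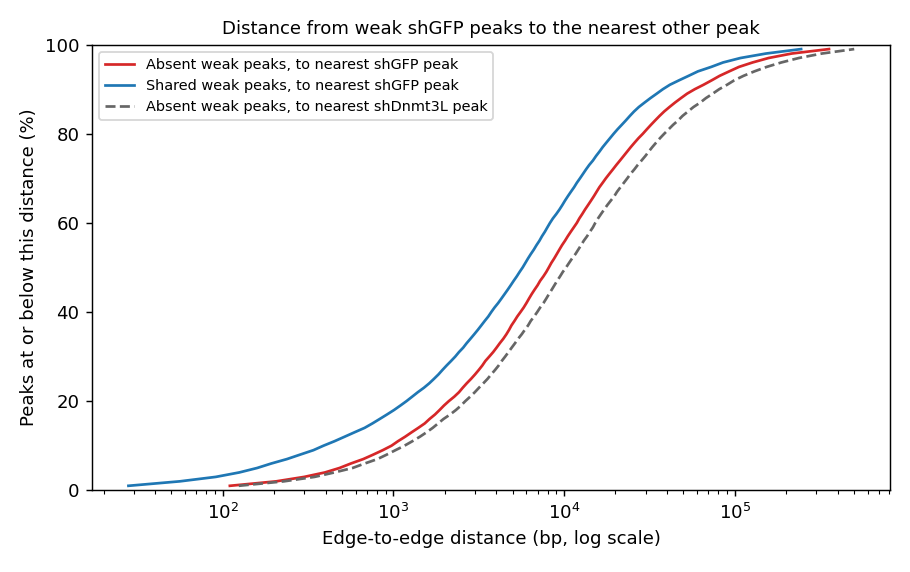
Cumulative share of peaks (vertical axis, %) by edge-to-edge distance (horizontal axis, bp, log scale) from percentile 1 to 99. The line of absent weak peaks to the nearest other shGFP peak (median 8137 bp) lies to the right of that of shared weak peaks (5716 bp), and the dashed line gives the distance of absent weak peaks to the nearest shDnmt3L peak (10.3 kb).

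The most isolated members lay on the sex chromosomes and in sparse autosomal stretches. The X chromosome peak at 61300366 to 61302051 scored 55.59 and was 2861.6 kb from any other shGFP or shDnmt3L peak. Another from 128028319 to 128029626 was 2092.1 kb from either, and one from 22300927 to 22302280 was 1426.6 kb from a shGFP and 2080.5 kb from a shDnmt3L peak. The peak on chromosome 5 from 58150160 to 58151305 was 1531.1 kb from the nearest shGFP peak, but 37.3 kb from a shDnmt3L peak. On the Y chromosome, the peak from 38312 to 39808 was 1358.0 kb from a shGFP and 1749.4 kb from a shDnmt3L peak. The peak on chromosome 1 from 28146706 to 28147898 had a shGFP peak 84.1 kb away and no shDnmt3L peak within 1816.7 kb. All 6 had at most 1 other shGFP peak within 1 Mb.

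Along the chromosome, an absent weak peak was followed by another absent one slightly more often than a shared weak peak was. The next weak shGFP peak, at higher coordinates, was also absent for 49.3% of absent weak peaks (48.5 to 50.2%) and for 44.9% of shared weak peaks (44.1 to 45.7%), a difference of 4.47 percentage points (3.32 to 5.63). When the next weak peak was at most 5 kb away the difference was 12.2 points (9.01 to 15.4). A joined shDnmt3L peak makes each weak peak that it overlaps shared by the rule. Of shared weak peaks within 5 kb of another shGFP peak, 18.3% overlapped such a peak. The part of this in the 12.2 points was not tested. The difference was 3.65 points (1.34 to 5.96) from 5 to 20 kb, and from 50 to 100 kb it was 1.72 (−1.09 to 4.52), not detectable. Compared within quartiles of local density it was 3.36 points, and without the shared peaks under joined shDnmt3L peaks, a filter that touches shared peaks only, 3.07 (1.88 to 4.25). Among peaks with scores of 75 to 100 alone it was 2.37 (0.422 to 4.399).

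Long blocks of absent peaks were rare. Among consecutive shGFP peaks of any score, 7089 absent weak peaks, or 52.4%, stood with no other on either side, and 390, or 2.88%, were in runs of 5 or more. Shared weak peaks in runs of 5 or more were 2.96% of theirs. Joined at gaps up to 100 kb, absent weak peaks formed 5825 groups with a mean of 2.32 peaks, and shared weak peaks 5051 groups with a mean of 3.02. Groups of 10 or more held 10.1% of absent and 26.3% of shared weak peaks. The sets differed in size, with 13522 and 15254 peaks, so the group sizes are not on equal footing.

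The longest run comprised 13 absent weak peaks in a row on chromosome 14 from 87846290 to 91263742, with scores from 51.05 to 98.43, over 3417.5 kb that held 2 shDnmt3L peaks. Runs of 9 were found on chromosomes 9 (83245724 to 83511893), 4 (81206207 to 82022994) and 14 (44825093 to 45787810). They spanned 266.2, 816.8 and 962.7 kb and held 0, 0 and 1 shDnmt3L peaks. A run of 8 on chromosome 4 from 90849159 to 93618952 spanned 2769.8 kb with no shDnmt3L peak. The run on chromosome 9 was the most compact of these 5.

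By chromosome, absent weak peaks were spread nearly in proportion to all weak peaks, apart from chromosome 8. On the autosomes, the density of absent weak peaks went from 4.25 per Mb on chromosome 14 to 7.33 on chromosome 11. Over 18 autosomes other than chromosome 8, between 45.5% (chromosome 11) and 50.8% (chromosome 3) of the weak peaks were absent. On chromosome 8, 871 of 2370 weak peaks were absent, or 36.8% (34.8 to 38.7%). The other autosomes together had 47.9%, a difference of −11.1 percentage points (−13.1 to −9.07).

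Chromosome 8 had as many absent weak peaks per Mb as other dense autosomes but more shared ones. It held 6.64 absent and 11.4 shared weak peaks per Mb, and chromosome 11, next in peak density, held 7.33 and 8.79. Its weak peaks had a median of 14 neighbours where absent and 15 where shared, the highest of any chromosome. The lower share was found in each score class, with 60.3% against 73.0% at scores of 50 to 60 and 7.24% against 13.5% at scores of 90 to 100. It was also lower among peaks with more than 20 neighbours (28.5%, 24.96 to 32.3%, against 38.4%, 35.4 to 41.5%), and standardised to the density of all weak peaks the difference was −7.12 percentage points.

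The X chromosome held 64 absent among 114 weak peaks, or 56.1% (47.0 to 64.9%). Its interval begins close to the 46.95% of all autosomes together, and it rests on few peaks. Absent and shared weak peaks there each had a median of 0 neighbours. Of all weak peaks with no neighbour, on any chromosome, 59.7% were absent. Standardised to the local density of all weak peaks, the share on the X chromosome was 34.9%. With medians of 0 neighbours, that value rests on few peaks in the denser classes. The X chromosome had 0.385 absent weak peaks per Mb, and the Y chromosome held 2 weak peaks, both absent. Over the 19 autosomes the absent share was lower where shGFP peaks per Mb were more numerous, with a Spearman correlation of −0.57, and of −0.49 without chromosome 8. Standardised to the local density of all weak peaks, the shares did not keep this order outside chromosome 8. The sparsest autosomes, 14, 3 and 1, had 45.5, 45.1 and 45.1%. Chromosomes 11, 5 and 17, the densest after chromosome 8, had 46.5, 46.9 and 48.8%. No correlation was computed on the standardised shares, and the part of local density in the correlation was not tested. These points come from the same pair of libraries, and the correlation is a description.

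**Figure D4:**
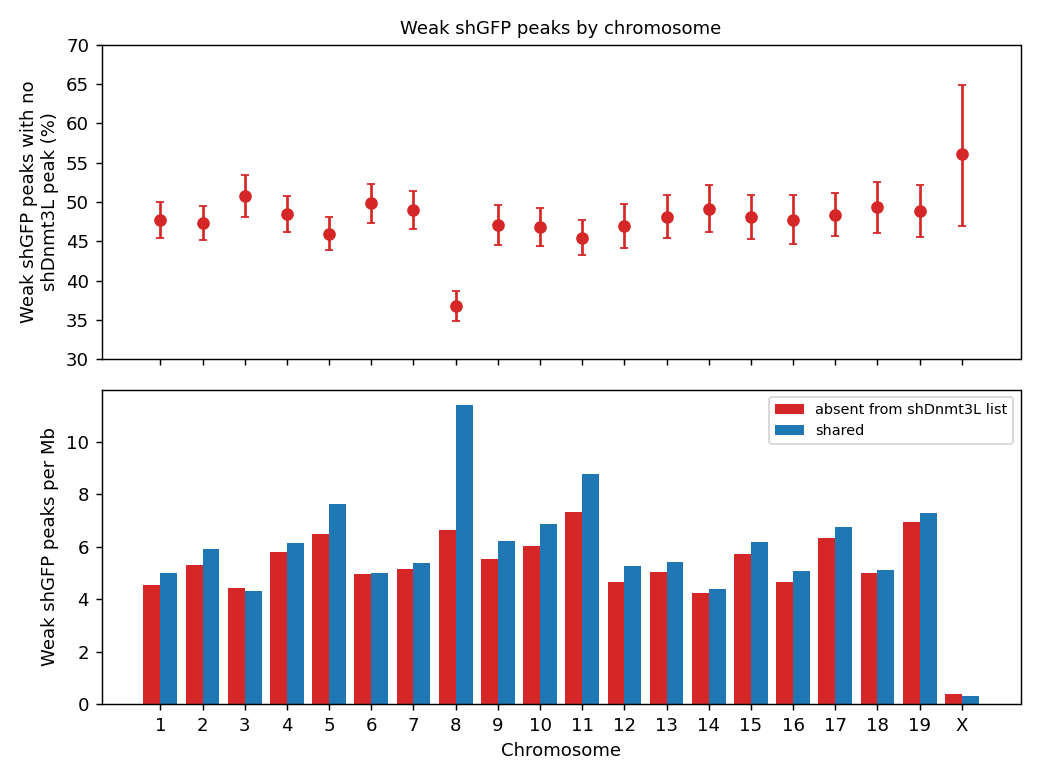
Upper panel, share of weak shGFP peaks with no shDnmt3L peak (vertical axis, %) for each chromosome with Wilson 95% intervals, on an axis that starts at 30%. Lower panel, absent and shared weak peaks per Mb of each chromosome, where chromosome 8 stands out by its 11.4 shared weak peaks per Mb and not by its 6.64 absent ones.

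Mouse autosomes have their centromere at the end of lowest coordinates. Absent weak peaks were sparse there and dense at the other end. Each autosome was cut into 10 equal parts from its first base up to its last peak. Stretches in which no peak could be called were not taken out, so densities per Mb can be too low where they lie. With 20 parts, absent weak peaks per Mb were 2.32 in part 1 and 4.36 in part 2. The values below are for 10 parts. There were 3.34 absent weak peaks per Mb in part 1 and 9.02 in part 10, where all shGFP peaks were also most numerous. The absent share had the opposite order, 49.8% (47.4 to 52.3%) in part 1 and 44.6% (43.2 to 46.0%) in part 10, a difference of 5.24 percentage points (2.47 to 8.02). It did not change evenly, since parts 6 and 7 had 49.0% and 48.7%.

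**Figure D5:**
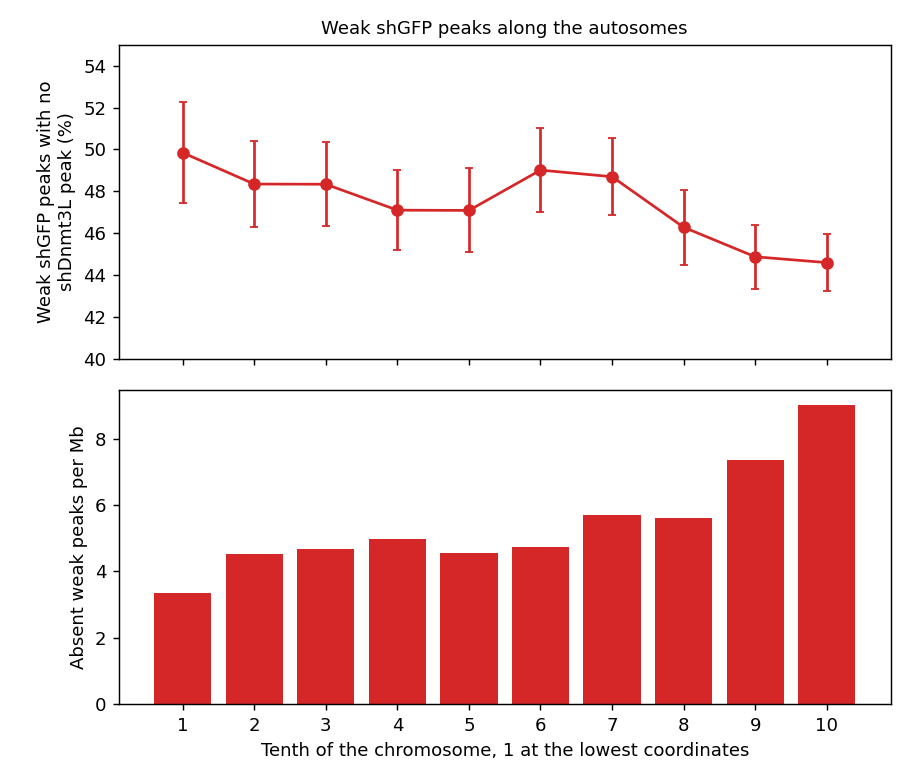
Upper panel, share of weak shGFP peaks with no shDnmt3L peak (vertical axis, %, starting at 40%) in 10 equal parts of the autosomes, with Wilson 95% intervals and part 1 at the lowest coordinates. Lower panel, absent weak peaks per Mb in the same parts, from 3.34 in part 1 to 9.02 in part 10.

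Absent weak peaks reached slightly more of the genome than shared ones. Of 2330 windows of 1 Mb with a weak peak midpoint, 2179 held an absent and 2060 a shared weak peak. The 523 fullest windows, or 24.0% of those occupied, held 50% of the absent weak peaks, and 441 windows, or 21.4%, held 50% of the shared ones. The highest number in a window was 29 absent or 45 shared weak peaks.

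The absent share varied between windows. Among 564 windows with at least 20 weak peaks, which are the dense ones, it had a median of 44.3% (quartiles 36.9 and 51.7%) and ranged from 11.8 to 75%. The interval lay above 47.0% in 10 windows (1.77%) and below it in 49 (8.69%). These windows together had an absent share of 43.6%, below that of all weak peaks. The balance depended on the windows, with 29 above and 30 below among 397 windows of 5 Mb, and 39 above and 63 below among 1164 windows of 1 Mb with at least 10 weak peaks. With 95% intervals some windows fall outside by counting error alone.

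The window with the highest share lay on chromosome 7 from 30000001 to 31000000 and contains the widest absent weak peak. There 21 of 28 weak peaks were absent, or 75% (56.6 to 87.3%), and the lists held 57 shGFP and 36 shDnmt3L peaks. Then came chromosome 10 from 83000001 (73.1%), chromosome 17 from 66000001 (72.7%), chromosome 5 from 124000001 (71.9%) and chromosome 1 from 181000001 (70%). The window on chromosome 5 was also among those with most absent weak peaks, with 23 of 32. These windows were picked for this share, and their intervals are a description.

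Of the 5 windows with the lowest shares, 3 were on chromosome 8. From 122000001 to 123000000, 6 of 51 weak peaks were absent, or 11.8% (5.51 to 23.4%), among 150 shGFP and 134 shDnmt3L peaks. The others on this chromosome started at 111000001 (13.2%) and 89000001 (18.5%). A window at 8000001 on chromosome 16 had 18.2% and that at 75000001 on chromosome 1 had 19.0%. In the last of these both lists held 44 peaks.

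The windows with most absent weak peaks were dense rather than high in share. The first, on chromosome 11 from 113000001 to 114000000, held 29 among 56 weak peaks, or 51.8% (39.0 to 64.3%). Windows starting at 168000001 on chromosome 2 and 5000001 on chromosome 19 held 24 each, and those at 117000001 and 124000001 on chromosome 5 held 23 each. In the first 4 of these 5 the interval included 47.0%.

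Weak peaks found only in the knockdown library were compared in the same way with weak knockdown peaks that had a partner. Of 23014 shDnmt3L peaks with a score below 100, 3784 (16.4%) overlapped no shGFP peak. The share over all 45579 shDnmt3L peaks is not given here, and nothing is read from this one. The median width of these 3784 peaks was 2221 bp, against 2163 bp for the 19230 weak shDnmt3L peaks with a partner. They had a median of 8 other shDnmt3L peaks within 100 kb, and those with a partner 7. In this list the share with fewer neighbours than the list median differed by −4.20 percentage points (−5.92 to −2.47) between peaks without and with a partner, whereas in the shGFP list it differed by 9.22. Weighted to score, the values were −5.13 and 9.999. The share narrower than the list median differed by −4.71 percentage points in the shDnmt3L list and by 25.2 in the shGFP list. For the share farther from the nearest peak of its own list than the list median, the differences were −5.63 and 9.31. A score limit of 100 may cut the lists at different enrichment, and the shDnmt3L list is the shorter. The differences between the lists were not tested.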

How the data were processed

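Each of the 2 libraries, shGFP and shDnmt3L, was deposited as a list of peaks with position, name and score. The score is the authors' value per peak; its lowest values of 50.01 and 50 fit 10 times −log10 of a p of 1e-05, a reading that rests on the values. Tools named in the submitters' processing notes are MACS 1.4.1, Bowtie 0.12.7 and CASAVA 1.8, with mm9 as the build. For the input control, duplicate reads and depth, details were not given in the sources used here.

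Overlap of at least 1 bp, distances and neighbour counts were computed with scipy 1.17.1, pandas 2.3.3 and numpy 2.4.6 under Python 3.11.15. The number of absent peaks was checked against bedtools 2.31.1, and the overlap was tested on a knockdown list simulated from the shGFP list. Distances and neighbour counts were checked by direct comparison of all pairs of peaks on a single chromosome. No peaks overlap within a list, so edge distances are exact. Shares carry Wilson and differences Newcombe intervals at 95%.

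Chromosomes were taken to end at their last peak in both lists combined. Weighted values give shared peaks the score classes, width classes or density quartiles of the absent ones; chromosome shares were standardised to the score or density classes of all weak peaks. Named regions are, by rule, the first 5 by score on either side of the threshold, by width, by isolation in each list, by window count and share, and by run length. The members and the lists were chosen with earlier results of these data known.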

Additional observations from a re-analysis of the deposited data

How the results depend on the processing

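Of 61 alternative values, 32 stayed within the counting interval of the reported value (within 1.5 times for numbers and spreads) and 29 moved beyond it. All 46 alternative differences kept their sign. Differences below are in percentage points, absent minus shared weak peaks: narrower than the median weak peak (width, 25.2 as reported), fewer neighbours than the median (density, 9.22), farther from the nearest shGFP peak than the median (distance, 9.31) and followed by an absent weak peak (clustering, 4.47). Counting a peak as absent only beyond 500 bp gave a share of 44.9%, density 11.4, distance 13.3 and clustering 5.92. Scores below 75 gave 60.97%, width 19.8 and distance 10.5. Scores from 75 to 100 gave 21.4%, 2175 absent peaks, width 17.1, density 7.63, distance 6.002 and clustering 2.37. With the 9713 lowest-scoring shGFP peaks dropped to make the lists equally long, which left scores of 60.39 or more, 6559 weak peaks were absent, or 34.4%, and width was 21.3. Without chromosome 8 the share was 47.9%. Weighting to score gave width 17.7 and distance 10.9, weighting to width gave density 6.02 and distance 7.97, and weighting to both gave distance 10.6. Neighbours within 1 Mb gave density 7.99. Leaving out shared peaks under joined shDnmt3L peaks gave width 26.7, density 7.07, distance 5.39 and clustering 3.07. Clustering beyond 5 kb was 3.17. The difference of chromosome 8 from the other autosomes, −11.1, was −7.12 standardised to density. Settings that change the score range change the share and number by construction, and leaving out shared peaks under joined ones removes only shared peaks, nearly all close to another; the cause of the other shifts was not tested. The joined-peak, joint weighting, density-standardised and 5 kb settings, and those without chromosome 8 for windows and chromosome ends, were chosen after seeing the data. No paired analysis was possible because there was a single library on either side.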
